A study of Mus musculus with 6 samples.

Results

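Inhibitory receptors and ectonucleotidases were read in the transcriptomes of 6 libraries of tumour-infiltrating OT-I T cells. The set holds 10 genes, chosen by name for their roles: the receptor genes Pdcd1, Ctla4, Lag3, Havcr2, Tigit, Btla, Cd160 and Cd101, and the genes of 2 ectonucleotidases, Entpd1 and Nt5e. These genes and the gene lists used below were chosen with earlier results of these data known. All 10 were found by symbol among the 55471 gene IDs of the tables, and all 10 were among the 12546 genes that passed the filter on low counts. The cells were OT-I CD8+ T cells, whose receptor recognises an ovalbumin peptide, from Cas9 knock-in mice. They had been transduced with a lentiviral vector that carried either a guide against Elovl1 (sgElovl1, 3 libraries) or a non-targeting guide (sgNT, 3 libraries). Transduced cells were selected on CD90.1 and transferred into mice with orthotopic KPC_OVA pancreatic tumours. Anti-PD-1 was begun 1 day later in the hosts of both groups, and CD90.1+ cells were sorted from the tumour 7 days after transfer, so that no library stands for untreated hosts. Libraries 1 and 2 of sgElovl1 each hold RNA from 2 tumours put together, whereas every other library came from 1 tumour. Values by library are given below in the order of replicates 1, 2 and 3.

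Inhibitory receptors appear on CD8+ T cells after antigen contact and stay high when antigen persists, as it does in tumours. Bound by their ligands, they dampen signalling of the T cell receptor or compete with stimulatory receptors for the same ligand. The ectonucleotidases CD39 and CD73 act in sequence on extracellular ATP and yield adenosine, which restrains T cells through adenosine receptors. CD39 is also widely used as a marker of tumour-reactive, exhausted CD8+ T cells, while CD73 is more often found on naive and memory cells.

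The libraries held 21980273 to 26165380 expected counts (the read pairs that RSEM assigned to genes). Elovl1, the targeted gene, was at 81.5, 76.6 and 95.4 CPM (counts scaled to the size of the library, with TMM factors) in sgElovl1 and at 283, 279.6 and 254 CPM in sgNT. The log2 fold change was -1.69 (SE 0.12, adjusted p = 8.71e-05 by edgeR's quasi-likelihood test, named edgeR from here on), so the guide labels held in every library. The OT-I receptor segments Trbv12 and Trav14 took at least 99.6% of Trbv and 97.2% of Trav counts. The first and second principal components held 44.7 and 29.1% of the variance. The third library of both groups stood apart in tumour epithelium markers, which summed to 320 CPM in sgElovl1 replicate 3 and 962 CPM in sgNT replicate 3, against 32.5 to 53.2 CPM in the others. Krt8, Krt18 and Krt19 carried the sums of replicate 3 (106.2, 56.2 and 102.7 CPM in sgElovl1, and 330, 230 and 310.5 CPM in sgNT). Replicate 3 stood out less in Cdh1 (18.0, 13.5 and 19.8 CPM in sgElovl1, and 10.2, 13.9 and 35.4 CPM in sgNT). The same held for Epcam (7.2, 10.2 and 17.9 CPM in sgElovl1, and 10.9, 14.9 and 25.0 CPM in sgNT). The defining CD8+ T cell genes were high throughout. Even so, Cd8a (log2 fold change -0.45, adjusted p = 0.0346), Cd8b1 (-0.49, adjusted p = 0.0211) and Cd247 (-0.36, adjusted p = 0.0495) were lower in sgElovl1 cells. Cd3e (0.40, adjusted p = 0.0493) was higher. The Cd8a, Cd3e and Cd247 calls were each lost when any of 5 libraries was left out, and the Cd8b1 call for any of 4. The highest adjusted p was 0.17, 0.189, 0.198 and 0.126, each without sgElovl1 replicate 2. The Cd3e and Cd247 calls were also lost with the replicate number as a block (adjusted p = 0.0614 and 0.0689). These 4 genes are among the 6 used below for scaling to T cell receptor and CD8 genes, so that reference itself differed between the groups.

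Of the 10 genes, only Entpd1 passed the test, and it was lower in sgElovl1 cells. Over all 12546 genes tested, 13.8% were called in either direction and 5.13% were called lower, so 1 call among 10 genes is near the background. Of the 8 receptor genes 0 were called by edgeR (adjusted p under 0.05) or limma-voom, DESeq2 called Tigit, and Tigit was the only 1 with an unadjusted p under 0.05 by any of these tools. Fold changes were positive for 6 genes and negative for 4, with a median log2 fold change of 0.02 against -0.004 over all genes tested. The CPM of the groups did not overlap for 3 of the 10 genes (Entpd1, Pdcd1 and Nt5e), beside 37.1% of all genes tested.

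**Figure D1:**
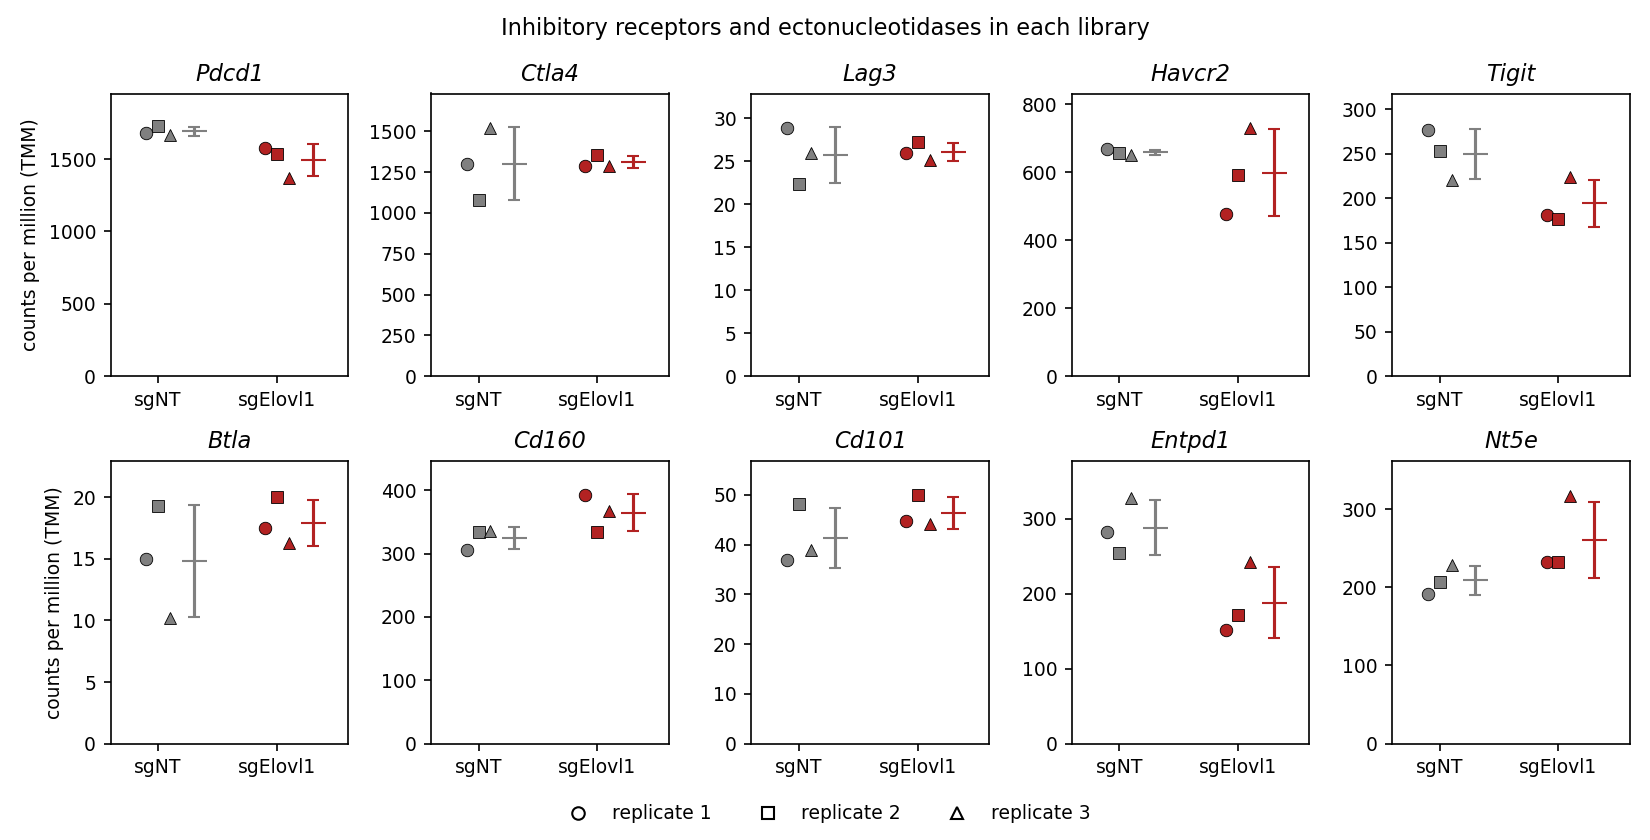
CPM (TMM scaling, linear axes from 0) of the 10 genes in the 3 sgNT (grey) and 3 sgElovl1 (red) libraries, with marker shapes for replicates and the mean ± SD beside the points. Entpd1 lies between 151 and 242 CPM in sgElovl1 and between 255 and 328 CPM in sgNT, whereas the points of Ctla4, Lag3, Havcr2, Tigit, Btla, Cd160 and Cd101 overlap.

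Pdcd1, which encodes PD-1, the receptor for PD-L1 and PD-L2 and the target of the antibody given to the hosts, was the most abundant of the 10 genes. Its level was 1574, 1536 and 1372 CPM in sgElovl1 and 1682, 1726 and 1669 CPM in sgNT. Every sgElovl1 library was below every sgNT library, but the difference did not pass the test. Group means were 1494 ± 108 against 1692 ± 30.2 CPM (SD, n = 3 in each). This gave a log2 fold change of -0.18 (SE 0.12, 95% interval -0.45 to 0.09, edgeR, adjusted p = 0.334). In TPM (scaled by transcript length as well) the groups overlapped, at 1003, 1017 and 843 in sgElovl1 against 1022, 1109 and 959 in sgNT. The interval places the change between 0.732-fold and 1.06-fold.

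The Pdcd1 gene (ENSMUSG00000026285) spans chr1:94038305-94052553 on the minus strand of GRCm38 in GENCODE M21, with a single annotated transcript of 1930 bases. The 130 bases before its RefSeq start (GRCm38.p6, chr1:94052554-94052683, minus strand) are shown because they precede the start of the receptor transcript with the highest level. Capitals mark the letters GGAAA, the core that NFAT factors recognise, on either strand.
Pdcd1: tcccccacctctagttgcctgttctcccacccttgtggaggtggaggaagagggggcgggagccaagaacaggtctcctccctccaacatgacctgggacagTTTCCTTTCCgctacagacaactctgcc
Both marked matches lie on the opposite strand and follow each other directly. In a window of 250 bases before the start, GGAAA was present on either strand in 6 of the 11 RefSeq starts of 9 of the genes and in 55.6% of all 32851 promoters of that table. These are matches of letters and were not measured as binding sites.

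Ctla4, whose product takes CD80 and CD86 away from CD28, was the next most abundant gene. It was at 1290.2, 1358 and 1290.4 CPM in sgElovl1 and at 1302, 1077 and 1524 CPM in sgNT. The sgElovl1 libraries lay close together inside the wider range of the sgNT libraries. The log2 fold change was 0.01 (SE 0.14, 95% interval -0.30 to 0.33, edgeR, adjusted p = 0.962), which leaves room for changes from 0.81-fold to 1.26-fold. The gene lies at chr1:60887000-60915832 (plus strand), and its 1933-base transcript accounted for all but at most 0.212% of its transcripts in every library.

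Tigit, an inhibitory receptor for CD155 that competes with the stimulatory CD226, had the largest receptor change. It was at 182, 177 and 224 CPM in sgElovl1 and at 276, 254 and 220.4 CPM in sgNT. The groups overlapped through replicate 3: sgElovl1 replicate 3 was above sgNT replicate 3, while replicates 1 and 2 of the groups were well apart. Group means were 194 ± 26.1 against 250.1 ± 28.1 CPM. A log2 fold change of -0.36 resulted (SE 0.13, 95% interval -0.65 to -0.08, edgeR, adjusted p = 0.0853). Tigit passed the test with DESeq2 (adjusted p = 0.0406), without sgElovl1 replicate 3 (-0.48, edgeR, adjusted p = 0.0202) and when replicate 3 of both groups was left out (-0.57, edgeR, adjusted p = 0.00151). The change was -0.08 (adjusted p = 0.695) when libraries were scaled to T cell receptor and CD8 genes. The ratio of Tigit to Cd226 counts was lower by 0.33 on the log2 scale in sgElovl1, with overlapping groups (exact permutation test, two-sided, p = 0.2, the smallest possible being 0.1). The gene lies at chr16:43648867-43664146 (minus strand) and has 1 annotated transcript, of 919 bases.

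Havcr2 encodes TIM-3, a receptor for galectin-9 and other ligands that marks strongly exhausted cells. It was at 476, 591 and 729.8 CPM in sgElovl1, and at 667, 658 and 652 CPM in sgNT. The sgNT libraries were nearly alike (coefficient of variation 1.14%), and the sgElovl1 libraries spread on both sides of them (21.2%). On the log2 scale Havcr2 differed by -0.14 (SE 0.15, 95% interval -0.47 to 0.19, edgeR, adjusted p = 0.56). With replicate 3 of both groups left out it was -0.31 (edgeR, adjusted p = 0.0457). Dendritic cells also express Havcr2, and within sgElovl1 the 9 dendritic cell markers, none of them at 0 in every library, had a summed level in the same order of libraries. Their sums were 152, 233 and 544 CPM in sgElovl1 and 106, 107 and 149 CPM in sgNT. In sgElovl1 the sums were carried by Cd74 and class II genes (Cd74 alone 53.4, 99 and 287 CPM). Among the other markers, Flt3, Clec9a and Siglech were at most 0.0852 CPM in any library, whereas Xcr1 was at 25.0 to 38.3 CPM. Zbtb46 was at 7.55, 4.99 and 5.62 CPM in sgElovl1 and 3.66, 2.14 and 1.78 CPM in sgNT. It was called higher (log2 fold change 1.26, edgeR, adjusted p = 0.0246), a call lost for 4 of the 6 libraries left out. The part of dendritic cells in the Havcr2 values was not tested. The gene spans chr11:46454935-46481255 (plus strand).

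Lag3, whose product binds MHC class II, was among the less abundant members. It was at 26, 27.2 and 25.1 CPM in sgElovl1 and at 28.9, 22.4 and 26 CPM in sgNT. The groups overlapped, with a log2 fold change of 0.02 (SE 0.13, 95% interval -0.27 to 0.31, edgeR, adjusted p = 0.931). These levels rest on 549 to 747 counts per library. The gene lies at chr6:124904361-124911705 (minus strand), and only sgNT replicate 2 was assigned any of its short transcript Lag3-202 (4.46% of its Lag3 transcripts).

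Btla and Cd160 encode receptors that share a ligand, HVEM. Cd160 was the more abundant, at 392, 334 and 368 CPM in sgElovl1 and 305, 334 and 335 CPM in sgNT. These values met at sgElovl1 replicate 2, whose level was within the sgNT range. The log2 fold change of Cd160 was 0.17 (SE 0.11, 95% interval -0.08 to 0.42, edgeR, adjusted p = 0.329). In TPM the groups were apart, with 476, 423 and 433 in sgElovl1 against 354, 406 and 364 in sgNT. When libraries were scaled to T cell receptor and CD8 genes Cd160 was called higher (0.46, adjusted p = 0.0165), a scaling under which the median of all genes rose to 0.286. Btla was the least abundant member, with 17.5, 20.0 and 16.3 CPM in sgElovl1 and 15.0, 19.3 and 10.2 CPM in sgNT (0.27, SE 0.21, 95% interval -0.19 to 0.74, adjusted p = 0.395). The Btla groups overlapped, and with 246 to 550 counts per library its interval was the widest of the 10. Its change was 0.08 without sgNT replicate 3 and 0.53 without sgNT replicate 2 (edgeR, adjusted p = 0.795 and 0.179). Cd160 lies at chr3:96798763-96829351 (minus strand) and Btla at chr16:45224315-45257670 (plus strand).

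Cd101 encodes a surface glycoprotein of the immunoglobulin superfamily that marks terminally exhausted CD8+ T cells. It was at 44.8, 50.0 and 44.1 CPM in sgElovl1 and at 36.9, 48.2 and 38.9 CPM in sgNT. The second library was the highest of each group, and the groups overlapped there. On the log2 scale Cd101 differed by 0.16 (SE 0.13, 95% interval -0.12 to 0.44, edgeR, adjusted p = 0.402), and it was -0.10 once the trend with gene length was removed. The gene lies at chr3:100993529-101029556 (minus strand). Its transcripts Cd101-201 and Cd101-202 start at different positions, and the share of Cd101-202 ranged from 36.7 to 76.0% over the libraries, with overlapping groups.

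Entpd1 encodes CD39, which hydrolyses extracellular ATP and ADP to AMP. It fell in sgElovl1 cells: its level was 151, 171 and 242 CPM in sgElovl1 against 283, 255 and 328 CPM in sgNT. The groups did not overlap, and the closest libraries were sgElovl1 replicate 3 and sgNT replicate 2. Group means were 188 ± 47.8 against 288 ± 36.6 CPM, 0.653-fold (95% interval 0.5 to 0.852). The log2 fold change of Entpd1 was -0.62 (SE 0.17, 95% interval -1.0 to -0.23, edgeR, adjusted p = 0.0417). In a bulk library, fewer cells with the transcript and less transcript per cell cannot be told apart.

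The Entpd1 difference was sensitive to single libraries. It stayed negative in all 16 alternatives and passed the test in 9 of them. The call was lost without sgElovl1 replicate 1 (-0.48, edgeR, adjusted p = 0.146), without sgElovl1 replicate 2 (-0.55, 0.18), and without sgNT replicate 1 (-0.62, 0.107), 2 (-0.69, 0.0907) or 3 (-0.50, 0.1). It was stronger without sgElovl1 replicate 3 (-0.84, edgeR, adjusted p = 0.00481). Scaling to T cell receptor and CD8 genes left -0.33 (edgeR, adjusted p = 0.116), and in TPM, where the groups overlapped, limma gave -0.66 (adjusted p = 0.0785). Per library, the ratio of Entpd1 to Cd8a counts was lower by 0.19 on the log2 scale with overlapping groups (exact permutation test, two-sided, p = 0.4). Cd8a was itself called lower in sgElovl1, as given above, so this ratio has a denominator that differed between the groups. Macrophages and dendritic cells also express Entpd1. The 11 macrophage and monocyte markers other than Ly6c2, which CD8+ T cells express too, summed to 93.9, 133 and 266 CPM in sgElovl1 and 43.6, 60.3 and 59.7 CPM in sgNT. In sgElovl1 most of this sum came from Lyz2, with a group mean of 96.8 CPM against 7.9 CPM in sgNT. Lyz2 was not called (log2 fold change 3.61, edgeR, adjusted p = 0.0958). Most of the sum in sgNT came from Cd68, the only tested marker of the list with a negative change (-0.34, edgeR, adjusted p = 0.159). The markers therefore did not all rise together. Entpd1 was highest, within both groups, in the third library. The sums of those markers and of the dendritic cell markers were highest in sgElovl1 replicate 3. None of the 11 was at 0 in every library. Their part in the Entpd1 values was not tested.

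**Figure D2:**
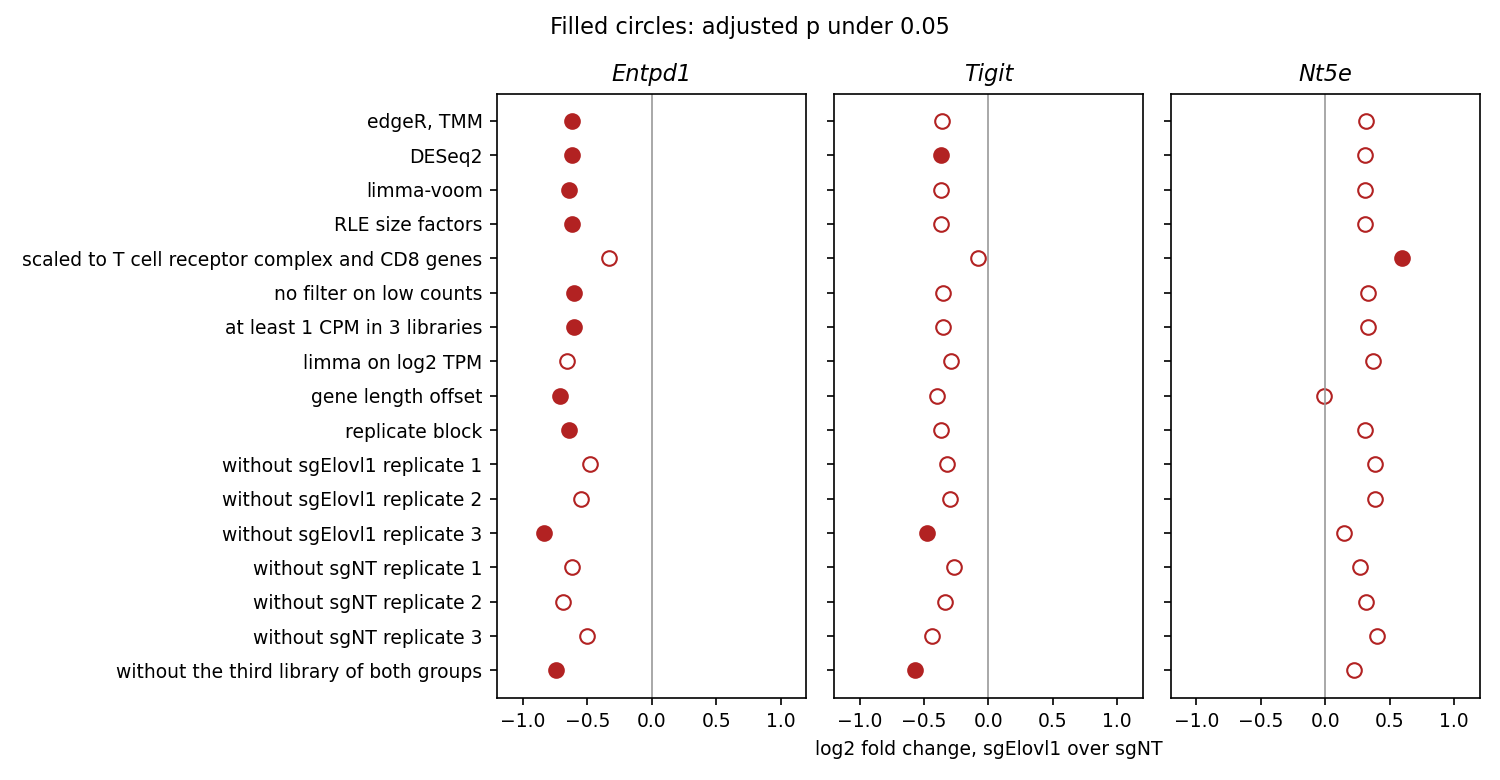
Log2 fold change of Entpd1, Tigit and Nt5e (sgElovl1 over sgNT, horizontal axis) under the reported fit and 16 alternatives (rows), with filled circles where the adjusted p was under 0.05. All Entpd1 and Tigit points lie below 0, from -0.84 to -0.33 and from -0.57 to -0.08, while Nt5e runs from -0.01 to 0.60.

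Entpd1 (ENSMUSG00000048120) spans chr19:40612366-40741602 on the plus strand and has 11 annotated transcripts from several starts. The start of the 2409-base Entpd1-204 lies 47373 bases upstream of that of the 4221-base Entpd1-201. The bases before both RefSeq starts (GRCm38.p6, plus strand) are shown because the deposited gene length, an average weighted by transcript abundance, moved between libraries for this gene. The distal window is chr19:40612236-40612365 and the proximal window is chr19:40659640-40659769, each of 130 bases. Capitals again mark GGAAA on either strand.
Entpd1 distal: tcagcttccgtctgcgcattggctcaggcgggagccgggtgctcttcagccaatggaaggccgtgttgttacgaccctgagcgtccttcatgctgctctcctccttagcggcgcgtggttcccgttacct
Entpd1 proximal: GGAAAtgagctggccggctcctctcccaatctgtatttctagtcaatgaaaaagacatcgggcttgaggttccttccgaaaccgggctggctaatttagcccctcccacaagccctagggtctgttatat
The distal sequence held 61.5% G and C and no match, and the proximal one held 50.8% and 1 match. The AP-1 letters TGANTCA, found in 6.75% of all promoters, were in neither of the 250-base windows, and the CRE core TGACG (17.8% of all promoters) was in both.

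The average Entpd1 transcript was 2646, 2627 and 2298 bases long in sgElovl1 and 2098, 2535 and 2542 bases in sgNT. Lengths over 2409 bases require Entpd1-201, the only longer transcript. Its share was therefore at least 13.1 and 12% in sgElovl1 replicates 1 and 2 and at least 6.95 and 7.36% in sgNT replicates 2 and 3, whereas the other libraries set no lower limit. The groups overlapped (difference 132 bases, exact permutation test, two-sided, p = 0.5), and the difference ran from -15 bases without sgNT replicate 1 to 245 bases without sgElovl1 replicate 3. The average length varied between libraries for 8 of the 10 genes, and with 3 libraries per group the test could call none of them, since its smallest p is 0.1. Havcr2 alone reached that p (exact permutation test, adjusted p = 0.8 over the 8), with separate groups that differed by 0.2 bases.

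Nt5e encodes CD73, which turns AMP into adenosine. In contrast to Entpd1, it was higher in each sgElovl1 library (232, 232 and 316 CPM) than in each sgNT library (191, 207 and 228 CPM). The closest libraries, at 232 and 228 CPM, were almost level, and sgElovl1 replicate 3 stood above the rest. Group means were 260.2 ± 48.7 against 209 ± 18.5 CPM. On the log2 scale the change was 0.32 (SE 0.14, 95% interval 0.01 to 0.63, edgeR, adjusted p = 0.148), so Nt5e did not pass the test. Without sgElovl1 replicate 3 the change was 0.15 (edgeR, adjusted p = 0.318). The average Nt5e transcript is long, at 3939 bases, and long genes were higher in sgElovl1 in general: the median log2 fold change was 0.286 in the longest 3137 genes and -0.116 in the shortest 3137. With that trend removed, the change of Nt5e was -0.01 (edgeR, adjusted p = 0.963), where the median of all genes was -0.113. With scaling to T cell receptor and CD8 genes it was 0.60 (edgeR, adjusted p = 0.00543). The gene spans chr9:88327197-88372092 (plus strand).

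The ratio of both enzymes was also compared within each library, a measure that does not depend on the scaling between libraries. The log2 ratio of Entpd1 to Nt5e counts was -0.62, -0.44 and -0.39 in sgElovl1 and 0.56, 0.30 and 0.52 in sgNT. All sgElovl1 libraries were below 0 and all sgNT libraries above it. The difference was -0.94, and it stayed between -1.02 and -0.88 when any library was left out. With 3 libraries per group the exact permutation test (two-sided) could not go below p = 0.1, which is the value it gave (adjusted p = 0.267 over the 4 ratios tested). With the trend with gene length removed, the log2 fold changes of Entpd1 and Nt5e were -0.71 and -0.01. Per transcript length, Entpd1 exceeded Nt5e more than 2-fold in each sgNT library (155, 119.7 and 137 against 53.4, 59.2 and 58.1 TPM), and the genes were close in sgElovl1 (67.0, 79.4 and 121 against 67.5, 68.3 and 86.4 TPM).

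**Figure D3:**
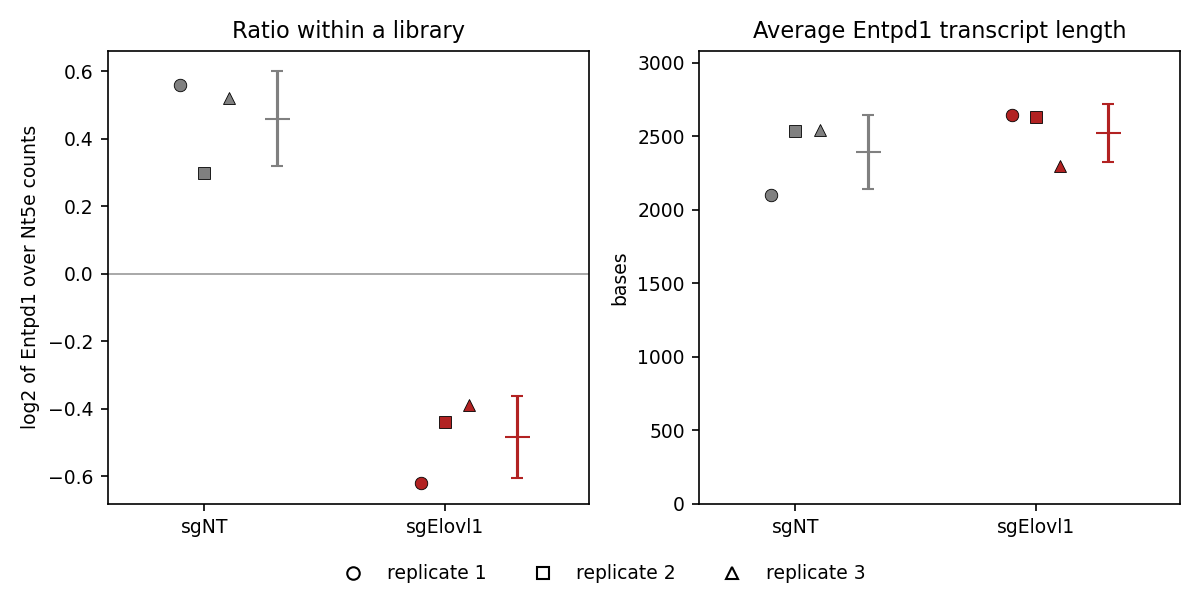
Left, log2 ratio of Entpd1 to Nt5e counts within each library, and right, average length of Entpd1 transcripts in bases (axis from 0), for sgNT (grey) and sgElovl1 (red), with the mean ± SD beside the points. The ratios lie between 0.30 and 0.56 in sgNT and between -0.62 and -0.39 in sgElovl1, while the lengths, from 2098 to 2646 bases, overlap.

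Compared per transcript length, the 10 genes fell into a high and a low tier in both groups. In sgNT the order by mean TPM was Pdcd1 (1030.3 ± 75.4), Ctla4 (785 ± 91.5), Tigit (398 ± 57.3), Cd160 (375 ± 27.6), Havcr2 (271 ± 16.7), Entpd1 (137 ± 17.5), Nt5e (56.9 ± 3.11), Lag3 (15.2 ± 1.44), Cd101 (14 ± 2.68) and Btla (5.80 ± 2.02). In that order only the neighbours Tigit and Cd160, and Lag3 and Cd101, had overlapping ranges. In sgElovl1 Cd160 (444 ± 27.8 TPM) stood above Tigit (325 ± 33.3 TPM) without overlap, and the overlapping neighbours were Pdcd1 and Ctla4, Entpd1 and Nt5e, and Cd101 and Lag3. Pdcd1 exceeded the TPM of 98.8 and 98.9% of genes tested in sgElovl1 and sgNT, and Btla that of 43.2 and 40.7%. The order of means was the same when CPM were divided by effective transcript length.

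**Figure D4:**
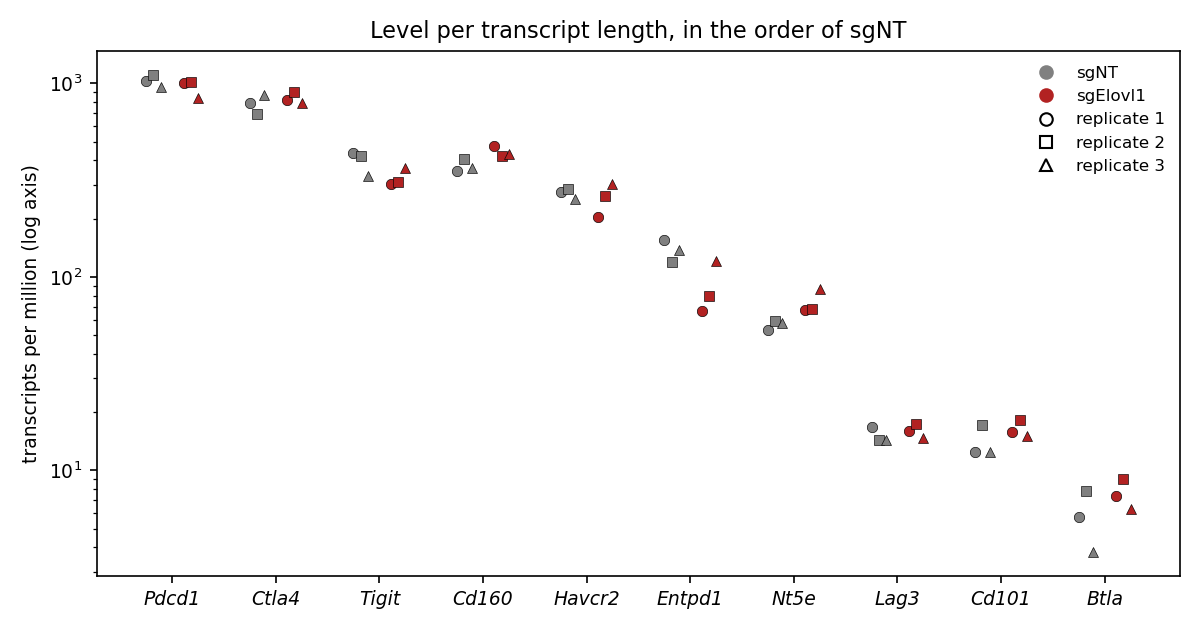
TPM (logarithmic axis) of the 10 genes in the sgNT (grey) and sgElovl1 (red) libraries, ordered by their mean in sgNT, with marker shapes for replicates. Levels run from at least 843 TPM for Pdcd1 to 3.8 to 9 TPM for Btla, and the gap between Nt5e (at least 53.4 TPM) and Lag3 (at most 17.3 TPM) is present in both groups.

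Summed over the 8 receptor genes, the level was nearly the same in the groups. The sums were 2846, 2956 and 2768 TPM in sgElovl1 and 2914, 2955 and 2813 TPM in sgNT (means 2857 ± 94.5 and 2894 ± 73.1, exact permutation test, two-sided, p = 0.7). Pdcd1 and Ctla4 together made up 62.7% of the sum in sgElovl1 and 62.8% in sgNT. The Cd160 share was 16.7, 14.3 and 15.6% in sgElovl1 and 12.2, 13.7 and 12.9% in sgNT, without overlap (exact permutation test, p = 0.1, the smallest possible). The Tigit share was 10.6, 10.5 and 13.1% in sgElovl1 and 15.0, 14.3 and 11.8% in sgNT, with overlap (exact permutation test, p = 0.2). These are shares of a sum, so a rise of 1 lowers the others.

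**Figure D5:**
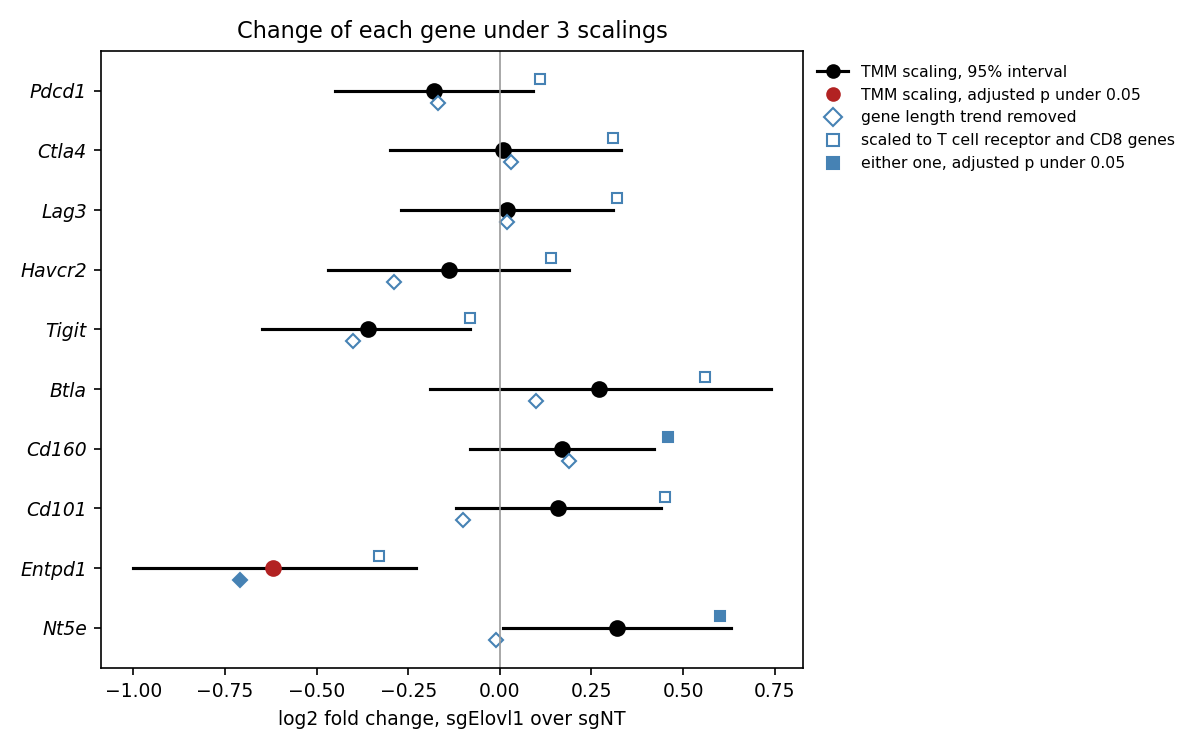
Log2 fold change (sgElovl1 over sgNT) of the 10 genes with TMM scaling (circles with 95% intervals, red where the adjusted p was under 0.05), after removal of the trend with gene length (diamonds) and with scaling to T cell receptor and CD8 genes (squares), filled blue where the adjusted p was under 0.05. With TMM scaling only Entpd1 (-0.62) was called, and the squares lie above the circles for every gene, with Cd160 (0.46) and Nt5e (0.60) called.

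How many of the 10 were higher depended on the scaling. With TMM scaling 6 were positive and 4 negative, with the trend with gene length removed 4 and 6, and with scaling to T cell receptor and CD8 genes 8 and 2. Entpd1 and Tigit were the 2 genes negative under all of these.

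Of 13 genes for ligands of these receptors, 11 were tested and 1 was called: Cd80, a ligand of CTLA-4 and CD28, rose in sgElovl1. It was at 15.6, 14.9 and 19.4 CPM in sgElovl1 and at 6.65, 7.29 and 7.33 CPM in sgNT, without overlap (log2 fold change 1.23, SE 0.17, edgeR, adjusted p = 0.00208), and it stayed called whichever library was left out (highest adjusted p = 0.0203). Cd80 is also made by dendritic cells and macrophages. Their marker sums, carried in sgElovl1 mainly by the few genes named above, were higher in every sgElovl1 library than in any sgNT library. Those sums were highest in the same library, sgElovl1 replicate 3, and the part of these cells in the Cd80 values was not tested. Lgals9, encoding galectin-9, stood at -0.42 (adjusted p = 0.0874) and Cd274, encoding PD-L1, at 0.50 (adjusted p = 0.144, and 0.20 with the length trend removed). With the replicate number as a block Lgals9 was called (adjusted p = 0.0459). Of the 5 tested receptors that stimulate or compete with the inhibitory ones, 0 were called by edgeR, DESeq2 or limma-voom. Cd28 alone had an unadjusted p under 0.05 with edgeR, as it did with limma-voom, while DESeq2 gave one to Cd28 and Icos. The log2 fold change of Cd28 was 0.31 (edgeR, adjusted p = 0.0978), and -0.04 with the length trend removed. Icos (-0.23, adjusted p = 0.19) and Cd96 (-0.20, adjusted p = 0.317) were the next in order of p.

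Genes that act below the receptors changed in both directions. Of 14 tested genes of inhibitory signalling, 2 were called higher and 2 lower. Ptpn11, encoding SHP-2, the phosphatase that PD-1 recruits, fell from 57.5, 70 and 51.4 CPM in sgNT to 36.3, 37.3 and 34.3 CPM in sgElovl1 (log2 fold change -0.73, SE 0.13, edgeR, adjusted p = 0.00644), and stayed called whichever library was left out. Grb2, an adaptor of receptor signalling, fell too (-0.57, adjusted p = 0.0237). Cblb, a ubiquitin ligase that limits T cell activation, rose from 121 ± 3.92 to 181 ± 15.1 CPM (n = 3 each, 0.58, edgeR, adjusted p = 0.00819), and Inpp5d, encoding the lipid phosphatase SHIP-1, rose by 0.41 (adjusted p = 0.0284). With the length trend removed, Cblb (0.22, adjusted p = 0.163) and Inpp5d (0.17, adjusted p = 0.303) were no longer called, whereas Ptpn11 (-1.17) and Grb2 (-0.58) were. Leaving out single libraries ended the call of Grb2 and Inpp5d for 4 of the 6 libraries and that of Cblb for 2, with the highest adjusted p (0.122, 0.142 and 0.0628) without sgElovl1 replicate 2.

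Of 9 tested genes of receptor trafficking and shedding, 1 was called. Adam10, a protease that sheds LAG-3 and TIM-3 from the cell surface, rose from 63.6, 66.3 and 69.9 CPM in sgNT to 112, 104 and 124 CPM in sgElovl1 (log2 fold change 0.77, SE 0.11, edgeR, adjusted p = 0.003). It stayed called whichever library was left out but not with the length trend removed (0.40, adjusted p = 0.0606). Ap1m1, an adaptor subunit of clathrin coats (-0.36, adjusted p = 0.0519), and Fbxo38, a ubiquitin ligase subunit that targets PD-1 (0.39, adjusted p = 0.0563), did not pass. With the length trend removed, Fbxo38 was at 0.05 (adjusted p = 0.824).

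Around the ectonucleotidases, 20 of 25 genes of extracellular purines were tested, with 1 called higher and 1 lower. Panx1, the channel through which cells release ATP, fell from 156, 185 and 124 CPM in sgNT to 84.1, 99.9 and 94.4 CPM in sgElovl1 (log2 fold change -0.74, SE 0.15, edgeR, adjusted p = 0.0107), although the call was lost for 3 of the 6 libraries left out, with the highest adjusted p (0.0642) without sgNT replicate 2. Dpp4, encoding CD26, the cell surface anchor of adenosine deaminase in human cells, rose from 57.0 ± 2.67 to 85.6 ± 7.68 CPM (0.59, edgeR, adjusted p = 0.00973). Its call was lost for 2 of the 6 libraries left out (highest adjusted p = 0.0706, without sgElovl1 replicate 2) and with the length trend removed (0.23, adjusted p = 0.184). The adenosine receptor gene Adora2a, named here after its values were seen, was at 38.5, 36.2 and 28.2 CPM in sgElovl1 and 31.4, 22.6 and 18.4 CPM in sgNT, and did not pass (0.51, adjusted p = 0.104, or 0.0333 with the replicate block). P2ry10 (0.44, adjusted p = 0.0616) did not pass.

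Among 15 other inhibitory receptor genes, all tested, 1 rose and 3 fell. Lilrb4a, an inhibitory receptor of the leukocyte immunoglobulin-like family, rose from 207, 173 and 198 CPM in sgNT to 343, 342 and 443 CPM in sgElovl1 (log2 fold change 0.96, SE 0.14, edgeR, adjusted p = 0.00232) and stayed called whichever library was left out. Klrc1, encoding NKG2A, fell from 905 ± 121 to 559 ± 108 CPM (-0.69, edgeR, adjusted p = 0.0186), Klrg1 fell by 0.63 (adjusted p = 0.021) and Cd200r1 fell by 0.55 (adjusted p = 0.0463). Leaving out single libraries ended the call of Klrc1 for 3 of the 6 libraries, of Klrg1 for 5 and of Cd200r1 for 4. The highest adjusted p was 0.121 for Klrc1 and 0.117 for Klrg1, both without sgElovl1 replicate 2, and 0.19 for Cd200r1 without sgNT replicate 2. Cd200r1 was also not called with the length trend removed (adjusted p = 0.0595). Macrophages and dendritic cells also express Lilrb4a. The sums of their markers, carried in sgElovl1 mainly by the few genes named above, were higher in every sgElovl1 library than in any sgNT library. Lilrb4a and those sums were highest in sgElovl1 replicate 3, and the part of these cells in the Lilrb4a values was not tested. Lilrb4a and Klrc1 have close paralogs next to them, between which the counting may divide reads.

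Of 18 tested transcription factors that act on inhibitory receptor genes, 3 were higher and 1 lower. Batf, an AP-1 family factor induced in exhausted cells, fell from 143, 182 and 136 CPM in sgNT to 94.9, 102 and 90.2 CPM in sgElovl1 (log2 fold change -0.68, SE 0.13, edgeR, adjusted p = 0.00934). Ikzf2, encoding Helios, rose from 26, 12.1 and 13.3 CPM to 48.4, 46.4 and 57.2 CPM (1.56, SE 0.30, edgeR, adjusted p = 0.02). Nr4a1, an early response gene of the T cell receptor, rose by 0.46 (adjusted p = 0.0313), and Nfatc1, an NFAT factor that acts on Pdcd1, rose by 0.48 (adjusted p = 0.0408). Neither Nr4a1 (0.37, adjusted p = 0.0608) nor Nfatc1 (0.11, adjusted p = 0.649) was called with the length trend removed. Leaving out single libraries ended the call of Batf for 1 of the 6 libraries (sgNT replicate 2, adjusted p = 0.0562) and of Ikzf2 for 3 (highest adjusted p = 0.0965, without sgElovl1 replicate 1). It ended those of Nr4a1 and Nfatc1 for 5 each, with the highest adjusted p (0.138 and 0.171) without sgElovl1 replicate 2. Tox, a regulator of exhaustion named here after its values were seen, was at 55.4, 79.1 and 44.4 CPM in sgElovl1 and 142, 225 and 83.9 CPM in sgNT, without overlap. It did not pass the test (-1.33, SE 0.44, edgeR, adjusted p = 0.111) but did with the replicate block (adjusted p = 0.002). Over all 7 lists 9 of 92 tested genes were called higher and 7 lower, that is 17.4% against the 13.8% of all genes, and their direction was the same with scaling to T cell receptor and CD8 genes. That scaling raised the median log2 fold change of all genes to 0.286, with 2950 genes called higher and 66 lower. It therefore favours higher calls over lower ones and is no separate check of single genes. Under it the 9 higher genes were still called, but of the 7 lower ones only Klrc1 was (-0.41, adjusted p = 0.04). Ptpn11 (-0.44, adjusted p = 0.0647), Panx1 (-0.46, 0.0696), Batf (-0.40, 0.0891), Klrg1 (-0.34, 0.12), Grb2 (-0.28, 0.24) and Cd200r1 (-0.28, 0.301) were not. With the replicate block 23 of the 92 genes were called, of which 8 were gained (Lgals9, Csk, Adora2a, Cd300a, Pilra, Tox, Tox2 and Tcf7), and Cd200r1 was lost (adjusted p = 0.0697).

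The genes whose pattern over the 6 libraries was nearest to that of a member were found by the root mean square difference of log2 CPM centred on each gene's mean. Nearest to Pdcd1 were Jpt1 (0.017), Ptpn1 (0.024) and Dtnb (0.024). Nearest to Tigit were Stradb (0.043), Tusc2 (0.043) and Ficd (0.044). Entpd1 had no equally close neighbour, with Fkbp7 (0.086), Tnfsf13b (0.087) and Bpgm (0.095) first, and for Nt5e the first was Cmtr1 (0.054). With 12546 genes and 6 libraries some gene will always lie close, and no member was among the nearest 3 of another.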

How the data were processed

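Per the submitters' processing notes and the study's methods, pre-amplified (SMARTer), strand-specific paired-end libraries were aligned to mm10 with STAR 2.7.7a and quantified with RSEM 1.3.1, and the authors ran DESeq2 1.36.0. The deposited tables hold expected counts (estimated read pairs per gene, not scaled between libraries), TPM (scaled by the authors to transcript length and library) and gene lengths. Symbols and coordinates are those of GENCODE M21 (GRCm38, the assembly of mm10), since the authors' annotation release is not given in the sources used here. Promoters are from RefSeq (GRCm38.p6), which matched 9 of the 10 genes.

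Counts were rounded and fitted in edgeR 4.0.16 (R 4.3.3) with filterByExpr (minimum count 10), TMM scaling, a quasi-likelihood test with group as the only term and Benjamini-Hochberg adjustment over 12546 genes. Genes with adjusted p under 0.05 count as called. Per the labels, cells of different mice served as replicates, except that sgElovl1 libraries 1 and 2 pool 2 tumours each. Same-numbered libraries deviated together (correlations 0.212, 0.245 and 0.405), and the replicate block was fitted as an alternative. Replicates 1 and 2 also did so across numbers (0.169 for sgElovl1 replicate 1 with sgNT replicate 2, and 0.107 for the reverse). Replicate 3 with the others gave -0.294 to -0.233. These values set replicate 3 apart and do not show that the libraries were paired by number. The others were DESeq2 1.42.0, limma 3.58.1 (voom, and log2(TPM + 0.5)), RLE factors, scaling to 6 T cell receptor and CD8 genes, filters, a gene length offset and left-out libraries. Lowest possible transcript shares were computed from deposited lengths. The code was tested on simulated data. The members and lists were chosen with earlier results of these data known. Besides the 10 members, the rule named the 3 genes of smallest p in each list, called genes of lists with at most 5 calls, and the 3 nearest patterns of a member.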

Additional observations from a re-analysis of the deposited data

How the results depend on the processing

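The number of the 10 genes called, 1 in the reported fit, was 2 with DESeq2, 2 with scaling to T cell receptor and CD8 genes, 0 with limma on log2 TPM and 3 when replicate 3 of both groups was left out, and it ranged from 0 to 2 when 1 library was left out. The number of genes called in the 7 lists, 16 in the reported fit, was 27 with DESeq2, 27 with scaling to T cell receptor and CD8 genes, 44 when replicate 3 of both groups was left out, and between 5 and 32 when 1 library was left out. With the replicate block Entpd1 was called (log2 fold change -0.64, edgeR, adjusted p = 0.018), and the block changed the call of none of the 10 genes. It changed the calls of 9 genes of the 7 lists. Among the cell type markers it ended the calls of Cd3e and Cd247 and added others, those of Lyz2, Cd74 and Epcam among them.

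The log2 fold change of a member turned its sign or came to 0 in 9 cases, all of them without a call under the setting. These were Pdcd1 (0.11) and Havcr2 (0.14) with scaling to T cell receptor and CD8 genes, Cd101 (-0.10) and Nt5e (-0.01) with the length trend removed, Havcr2 (0.00) without sgElovl1 replicate 1, Ctla4 (-0.01) and Lag3 (-0.01) without sgElovl1 replicate 2, and Ctla4 (-0.09) and Lag3 (-0.06) without sgNT replicate 2. When 1 library was left out, Havcr2 ran from -0.31 to 0.00, Ctla4 from -0.09 to 0.15, Btla from 0.08 to 0.53 and Lag3 from -0.06 to 0.13. Over all genes 1727 were called, against 2484 with DESeq2, 3016 (2950 higher, 66 lower) with scaling to T cell receptor and CD8 genes, 1123 (954 higher, 169 lower) with TPM, 1513 (583 higher, 930 lower) with the length trend removed, 3986 without replicate 3 of both groups and 321 to 2718 when 1 library was left out. The causes were not tested. The call of Elovl1 held in every alternative tried. For the order of the 10 genes by TPM the only alternative was CPM per effective transcript length. That measure differs from TPM mainly in the scale of each library, so the same order says little. Differences in average transcript length also turned sign without single libraries for Entpd1, Ctla4, Cd160, Cd101 and Nt5e, and the log2 difference of the summed receptor level (sgElovl1 over sgNT, -0.0188) ran from -0.0438 to 0.00366. Leaving out libraries for the sums and ratios was chosen after the data were seen. With 3 libraries per group, no single-value permutation test could pass 0.05.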
